A study of Arabidopsis thaliana with 8 samples.

Results

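The 50 genes described here are those whose signal dropped furthest down the order of signals from wild type to mutant in an array study of Arabidopsis thaliana. For each of the 3439 features of the array, the percentile rank within each array was taken, 100 being the brightest. Candidates were features assigned to 1 gene, above 0 on all 4 wild-type arrays and on at least 3 of the 4 mutant arrays, with a mutant mean percentile of at most 85. Of the 692 features with 1 gene, 382 met these conditions, and 364 were left after 18 genes named in the rule had been taken out. The 50 with the most negative difference, mutant minus wild-type mean percentile, were kept. The contrast between the genotypes therefore chose these genes, and its values for them are given as a description. Calls of the array-wide fit are given once, near the end, beside their background and not as a test of these genes.

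Total RNA of 4 wild-type samples (WT) and of 4 samples of the psah2k double mutant, both of ecotype Columbia 0, was measured, numbered 1 to 4 within each genotype. The line name points to the photosystem I subunits H and K, whereas the sample description names E1 and K as the missing proteins. The labels give neither organ, age nor growth conditions, and do not say whether the samples of a genotype were separate plants, so the spread between them may be technical. The whole scale also differed: the array median intensity lay between 0.304 and 0.336 in WT and between 0.0506 and 0.0582 in psah2k, and 448 to 472 features were at 0 on a WT array against 739 to 1014 on a psah2k array. No label says how the authors scaled the arrays. Percentile ranks do not depend on a common factor per array. None of the features with 1 gene was assigned to PSAE1, PSAH2 or PSAK, so those features give no check of the labels. Features assigned to several genes were not counted for this.

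Photosystem I passes electrons from plastocyanin to ferredoxin at the thylakoid membrane. Most plastid proteins are encoded in the nucleus, made in the cytosol and imported, so that plastid function depends on many nuclear transcripts besides those of the photosystems. These include transcripts for proteins that handle plastid RNA, for enzymes of lipid, amino acid and tetrapyrrole metabolism, and for folding factors. Many of the 50 genes have no well characterised product, and for those only the values are given.

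In WT the 50 genes were bright, which the rule favours because a large fall needs a high WT rank. Their WT mean percentile ran from 54.6 to 97.1 with a median of 80.8, and it was above 75 for 36 genes and above 90 for 8. Of their 200 values on WT arrays, 199 were above the median of the array and 151 above its upper quartile. In psah2k the mean percentile ran from 26.5 to 69.3 with a median of 42.6, and it was below 50 for 40 genes. Of the 200 psah2k values, 130 were below the array median and only 6 above the upper quartile. Nothing is read from these counts, because the rule used the same ranks. The values are amounts of signal per sample, in which fewer cells of a type and less RNA per cell cannot be told apart.

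The difference in mean percentile ranged from −58.2 to −27.6 points, with a median of −36.8. The 314 other candidates had a median difference of 3.35 points, between −27.0 and 56.9. They were dimmer in WT, with a median WT percentile of 49.2. The 134 of them within the WT percentile range of the 50 genes had a median difference of −7.77 points. Of these 134, 94 fell and 40 rose. On the deposited linear scale the WT mean was 1.72 to 63.7 times the psah2k mean, with a median of 20.9 for the 50 genes, 4.31 for the other candidates and 3.24 for all 2353 features with at least 3 values above 0 in each genotype. For 44 of the 50 genes the ratio was at least 10, as it was for 22.3% of all candidates. The rule used this contrast, so nothing is read from that difference in share.

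**Figure D1:**
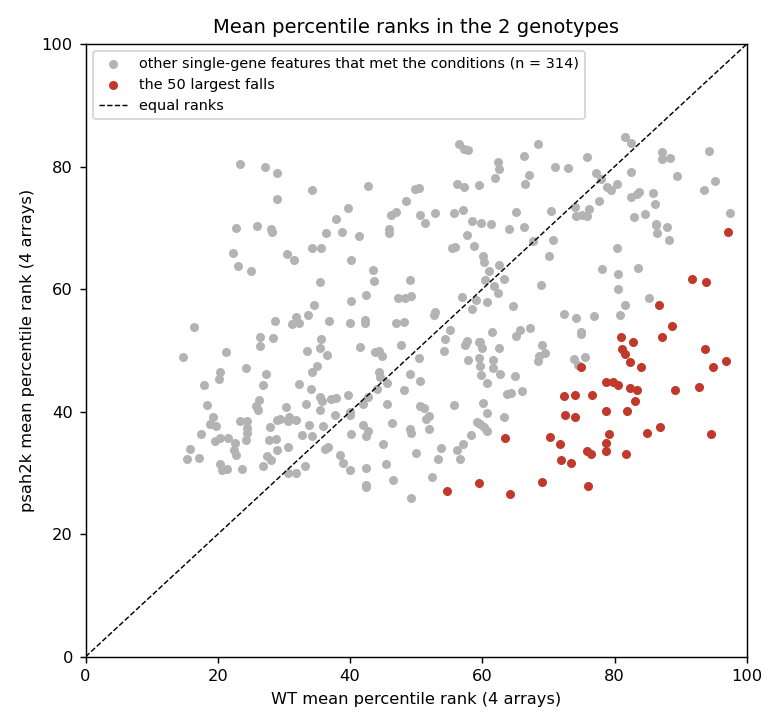
Mean percentile rank over 4 WT arrays (x axis) and over 4 psah2k arrays (y axis) for each of the 364 candidate features, with the 50 largest falls in red and the 314 others in grey. The 50 genes lie in the lower right, between 54.6 and 97.1 in WT and between 26.5 and 69.3 in psah2k, below the dashed line of equal ranks.

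In the rank order of each array, the median percentile of the 50 genes was 80.8, 78.6, 81.0 and 80.5 on WT arrays 1 to 4. It was 40.1, 38.6, 45.5 and 40.9 on psah2k arrays 1 to 4. The means of these ranks chose the genes, so nothing is read from the medians being low on every psah2k array. All 4 psah2k percentiles lay below all 4 WT percentiles for 47 of the 50 genes, as for 21.4% of all features and 25.3% of the candidates, shares from which nothing is read here because the rule used the same ranks.

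AT2G14660, AT3G24190 and AT5G36470 were the 3 genes whose genotypes overlapped. AT3G24190 is known as ABC1K6, an atypical kinase of the plastid ABC1K family. Its WT intensities were 0.829, 0.730, 1.07 and 0.892, and its psah2k intensities 2.01, 0, 0.0274 and 0.0120. On psah2k 1 it was thus brighter than on any WT array and on the other psah2k arrays far dimmer. AT5G36470 had 0.282 on psah2k 1 (percentile 80.4, within the WT range of 75.3 to 83.4) but 0.0246, 0.0131 and 0 on psah2k 2 to 4. AT2G14660 had 0.299 on psah2k 3 (percentile 82.8) and 0, 0.0189 and 0.00942 on psah2k 1, 2 and 4, against 0.769 to 0.831 in WT. The other ABC1K gene with a feature of its own, AT2G39190, was at 0 on 3 psah2k arrays and had a difference of −27.4 points.

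**Figure D2:**
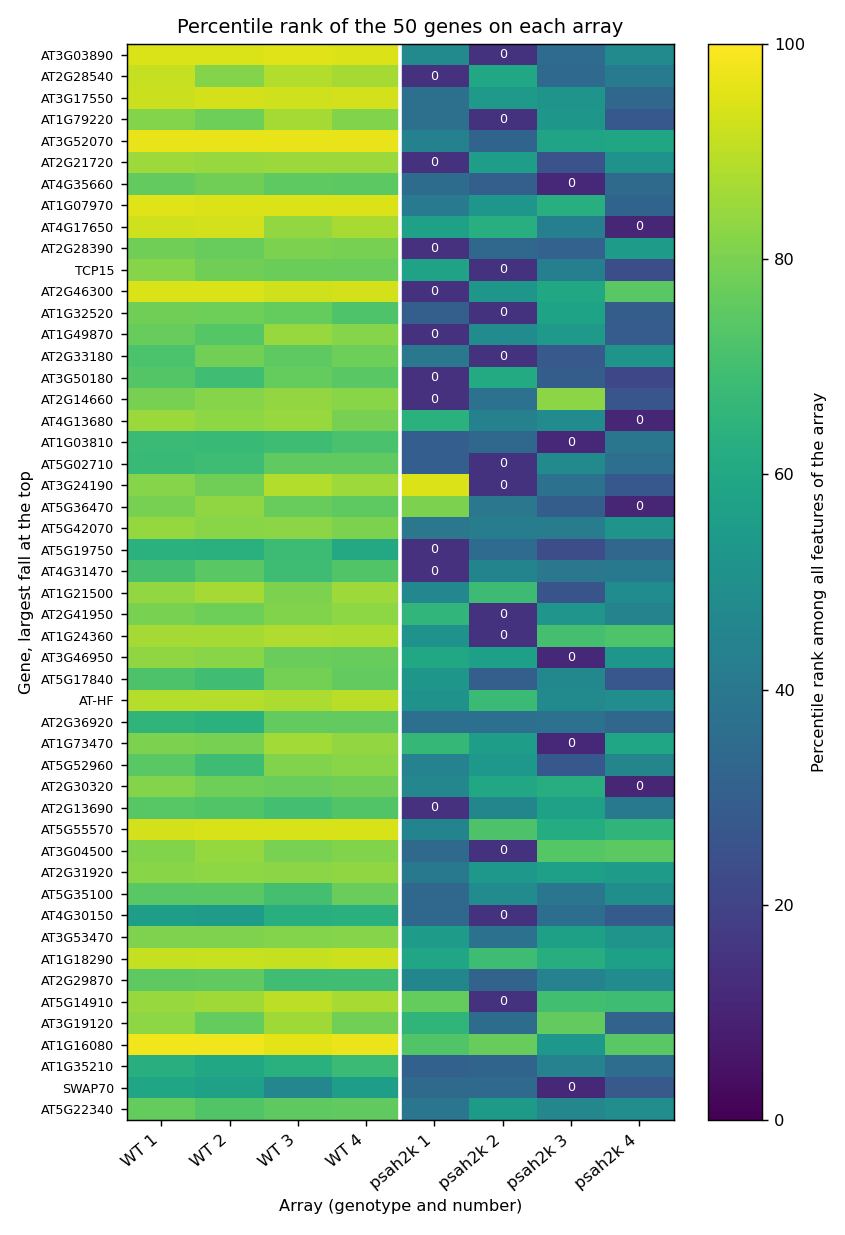
Percentile rank of each of the 50 genes (rows, largest fall at the top) on each of the 8 arrays (columns), from 0 in dark blue to 100 in yellow, with values listed at 0 marked by a 0. WT columns are even within a gene, while psah2k columns are darker and uneven, and AT3G24190 on psah2k 1 stands out as bright at a percentile of 94.9.

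Values within a genotype were much less even in psah2k than in WT. The SD of the percentile over the 4 arrays had a median of 15.8 points in psah2k and 2.34 points in WT, and it was larger in psah2k for 49 of the 50 genes. Among the 314 other candidates the medians were 11.1 and 3.02 points. A value of 0 shares its rank with every other 0 of the array and stands at a percentile of 14.1, 14.8, 11.2 and 10.8 on psah2k arrays 1 to 4. Of the 50 genes, 31 (62.0%) were at 0 on 1 psah2k array, namely 10 on psah2k 1, 12 on psah2k 2, 5 on psah2k 3 and 4 on psah2k 4, against 95 of the 314 other candidates (30.3%). The rule favours a gene with such a 0, because the 0 lowers its mean. The median psah2k SD was 19.3 points for the 31 genes with a 0. For the 19 genes above 0 on all arrays it was 9.53 points, below the 11.1 points of the other candidates.

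The 19 genes above 0 on all 8 arrays had a median difference of −32.7 points (from −48.8 to −27.6), and the 31 with a 0 had one of −40.5 (from −58.2 to −27.6). With values of 0 left out of the mean, an alternative chosen after seeing the data, the median over all 50 was −32.9. That alternative matters most for AT5G14910, a protein of the heavy metal transport and detoxification superfamily. Its difference went from −29.3 to −15.1 points without the 0 on psah2k 2, its other psah2k percentiles being 76.3, 69.6 and 69.1. Likewise the difference was −22.5 in place of −35.0 for AT1G24360 and −20.6 in place of −32.2 for AT3G04500 without psah2k 2. It was −22.1 in place of −34.3 for AT1G73470 without psah2k 3, and −22.5 in place of −33.9 for AT2G30320 without psah2k 4.

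The largest fall was that of AT3G03890, a plastid protein related to heme oxygenases. Its WT intensities were 1.99, 1.91, 2.07 and 1.94, and those in psah2k were 0.0475, 0, 0.0229 and 0.0538. The genotypes were far apart, at a mean of 1.98 ± 0.0709 (SD, n = 4) against 0.0311 ± 0.0246 (SD, n = 4), and the mean percentile dropped from 94.6 to 36.4. It was still the largest difference of the 50 with the 0 on psah2k 2 left out, at −51.0 points. A second feature, assigned to AT3G03890 together with 2 other genes, was at 0 on all 4 WT arrays and on 3 of the 4 psah2k arrays. Being at 0 in WT, it could not show a fall, and which transcripts it measures was not tested. Several-gene features existed for 4 of the 50 genes, and only that of AT1G03810 ranked lower in psah2k. Its difference was −25.1 points, against 13.4 for the feature of AT3G03890, 12.5 for that of AT2G13690 and 4.56 for that of AT3G46950. The features of AT3G03890 and AT2G13690 were at 0 on all 4 WT arrays and so could not rank lower. A 0 stood at a percentile of 6.53 to 6.88 on WT arrays and of 10.8 to 14.8 on psah2k arrays. A 0 thus ranked higher in psah2k without any signal.

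Next came AT2G28540, known as NOT4C, a homologue of the Not4 ubiquitin ligase of the CCR4-NOT complex, which acts in mRNA turnover. Its intensities were 1.37, 0.828, 1.09 and 0.947 in WT and 0, 0.0873, 0.0217 and 0.0402 in psah2k. The difference was −49.4 points, with WT and psah2k far apart on every array. AT3G17550, a phosphatase-like protein of the haloacid dehalogenase superfamily, was above 0 on all arrays. It had 1.54, 1.73, 1.52 and 1.55 in WT and 0.0196, 0.0646, 0.0599 and 0.0243 in psah2k. Its percentile went from 92.8 ± 0.585 to 44.1 ± 10.2 (SD, n = 4 each), so its place did not rest on a 0.

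AT3G52070 and AT1G07970 were the other pair among the 16 largest falls that was measured above 0 throughout. AT3G52070 was the brightest of the 16 in WT, with 3.40, 3.45, 3.08 and 3.06, and had 0.0365, 0.00562, 0.0785 and 0.0849 in psah2k. Its WT percentile hardly varied (96.8 ± 0.0366) and its psah2k percentile did (48.3 ± 12.8). AT1G07970 had 2.24, 2.14, 1.91 and 2.03 in WT and 0.0288, 0.0591, 0.0968 and 0.0219 in psah2k. It thus went from among the brightest features to the middle of the order, from a percentile of 94.9 to 47.2.

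AT4G17650 encodes a homologue of COQ10, which binds ubiquinone and is needed for its use in the respiratory chain, as known from yeast. WT values were 1.61, 1.71, 0.815 and 0.988, and psah2k values 0.0759, 0.102, 0.0399 and 0. Here WT numbers 1 and 2 were well above 3 and 4, yet every psah2k value was far below both. AT2G28390, named MON1 in the reference table, acts with CCZ1 in activating Rab7 on the way to the vacuole. It was among the most even genes in WT, at 0.728, 0.696, 0.707 and 0.702, and had 0, 0.00860, 0.0171 and 0.0748 in psah2k. For MON1 the brightest psah2k array was thus psah2k 4 which was still well below WT, at a percentile of 55.3 against a lowest WT percentile of 76.9.

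TCP15, a transcription factor of the TCP family that acts in cell proliferation and organ growth, had WT intensities of 0.831, 0.735, 0.645 and 0.645. In psah2k it had 0.0787, 0, 0.0401 and 0.00555. The psah2k values were spread over more than the rank of a 0, from a percentile of 14.8 to 57.8, and all were below the lowest WT percentile of 77.2. AT2G46300, of the late embryogenesis abundant hydroxyproline-rich glycoprotein family, had a WT mean of 1.76 ± 0.215 (SD, n = 4) and intensities of 0, 0.0605, 0.0826 and 0.175 in psah2k. Its psah2k percentile ran from 14.1 to 74.4 and was the least even of the 16, with an SD of 25.7 points.

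The other 7 of the 16 were AT1G79220, AT2G21720, AT4G35660, AT1G32520, AT1G49870, AT2G33180 and AT3G50180, each at 0 on 1 psah2k array. AT2G21720 had 0.960, 0.954, 0.867 and 0.890 in WT and 0, 0.0698, 0.00592 and 0.0618 in psah2k, a difference of −48.4 points. AT4G35660 had the lowest psah2k mean of the 16, at 0.0107 ± 0.0125 against 0.647 ± 0.0668 in WT (SD, n = 4 each). AT3G50180 had 0.621, 0.561, 0.613 and 0.582 in WT but 0, 0.0920, 0.0131 and 0.000150 in psah2k, the last of these close to 0. AT1G32520 (−43.3 points), AT1G49870 (−42.8) and AT2G33180 (−42.3) showed WT means of 0.656, 0.731 and 0.643 and psah2k means of 0.0245, 0.0320 and 0.0248. For each of the 16 every psah2k array was below every WT array, as for 21.4% of all features and 25.3% of the candidates. Nothing is read from this, because the rule used the same ranks.

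**Figure D3:**
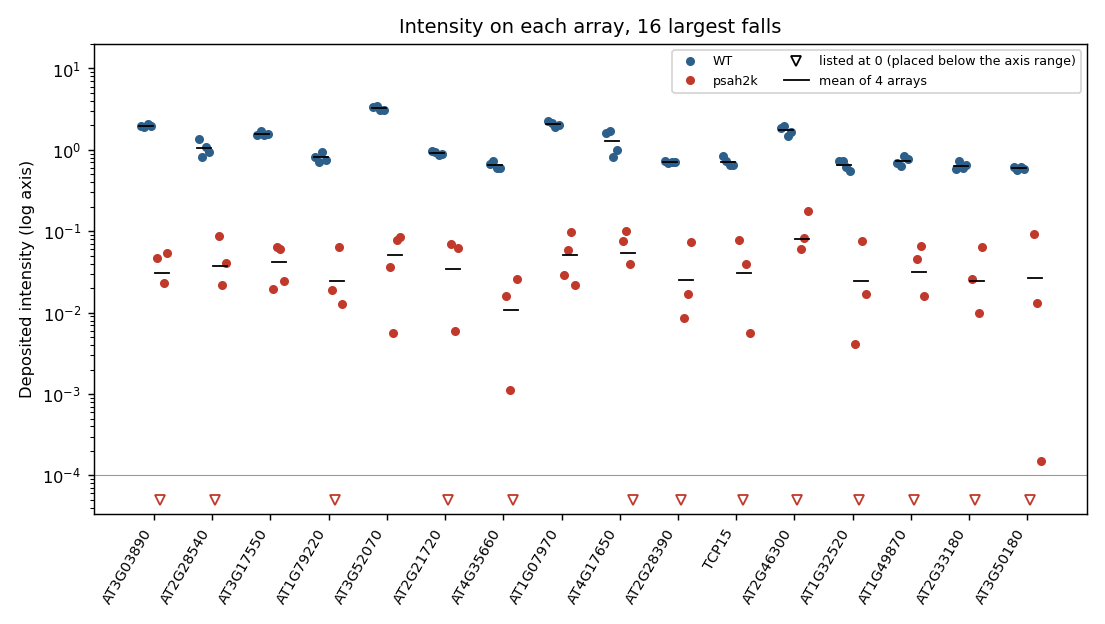
Deposited intensity on each array (log axis) for the 16 genes with the largest falls, ordered from left to right, with WT in blue, psah2k in red, the mean of 4 arrays as a black bar and values listed at 0 as open triangles below the line. WT means lie between 0.594 and 3.25 and psah2k means between 0.0107 and 0.0795, and 13 of the 16 genes have 1 triangle.

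Genes were then grouped by what their products are known to do, as a description made after their values were seen, and for 27 genes no role is given. Of the 50, 7 were grouped as encoding proteins that act on RNA or bind nucleic acids, with the transcription factor TCP15 kept apart. All 7 were at 0 on 1 psah2k array, as were 62.0% of the 50 genes and 30.3% of the other candidates. Nothing is read from that count, since the group was drawn up after the values were seen. These 7 had differences from −49.4 to −31.2 points, with a median of −34.9. Besides NOT4C they include AT1G79220 and AT3G46950 of the mTERF family, whose members bind nucleic acids in plastids and mitochondria and act in organelle gene expression. AT1G79220 had 0.827, 0.716, 0.937 and 0.749 in WT and 0.0192, 0, 0.0648 and 0.0128 in psah2k, a difference of −48.7 points. AT3G46950 had 0.872, 0.839, 0.636 and 0.638 in WT. Its psah2k values were 0.0845, 0.0718, 0 and 0.0657, at percentiles of 52.4 to 59.6 apart from the 0, and its difference of −34.9 was −23.7 with the 0 left out.

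The other 4 of this group were lower on every psah2k array too. AT1G03810, an OB-fold protein of the kind that binds nucleic acids, had 0.537, 0.539, 0.501 and 0.532 in WT and 0.00360, 0.00889, 0 and 0.0353 in psah2k. A feature assigned to AT1G03810 and 2 other genes was also lower, with mean percentiles of 37.8 in WT and 12.7 in psah2k, where it was at 0 on all 4 arrays. AT4G30150, related to the Urb2 protein of yeast ribosome assembly, was dim already in WT, at 0.389, 0.383, 0.429 and 0.433, and had 0.0131, 0, 0.0258 and 0.0147 in psah2k. AT3G04500, with an RNA recognition motif, and AT2G30320, of the pseudouridine synthase family that modifies RNA, had higher psah2k values. For AT3G04500 these were 0.0143, 0, 0.165 and 0.180 against 0.707 to 0.930 in WT, so psah2k 3 and 4 lay at percentiles of 73.5 and 74.8, below the lowest WT percentile of 80.0.

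The other genes of the mTERF family did not all rank lower in psah2k. The family list held 35 genes, written after the values had been seen, and 8 of them had a feature of their own. AT1G62010 and AT1G61990 also had large differences, −54.1 and −41.2 points, but were at 0 on 3 and 2 psah2k arrays and so could not be chosen. AT1G62150 and AT5G55580 were lower by a smaller step, −17.2 and −15.6 points. AT4G09620 was higher in psah2k on the deposited scale on every array, with 0.842, 0.819, 0.922 and 0.891 in WT and 1.03, 1.05, 0.959 and 0.957 in psah2k. AT3G18870 was dimmer in psah2k as deposited, with means of 0.156 and 0.0216, and its rank difference was 5.34 points. Its psah2k values were near 0, at 0.000125, 0.0399, 0.0465 and 0. On psah2k 1, where 972 features were at 0, the value of 0.000125 stood at a percentile of 28.4. That was above its percentile of 23.1 on WT 1, so nothing is read from this rise in rank. A feature assigned to AT3G46950 and 3 other genes had a mean percentile of 68.4 in WT and 73.0 in psah2k, and was dimmer as deposited, at 0.449 to 0.583 in WT and 0.137 to 0.223 in psah2k. Which transcripts that feature measures was not tested.

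**Figure D4:**
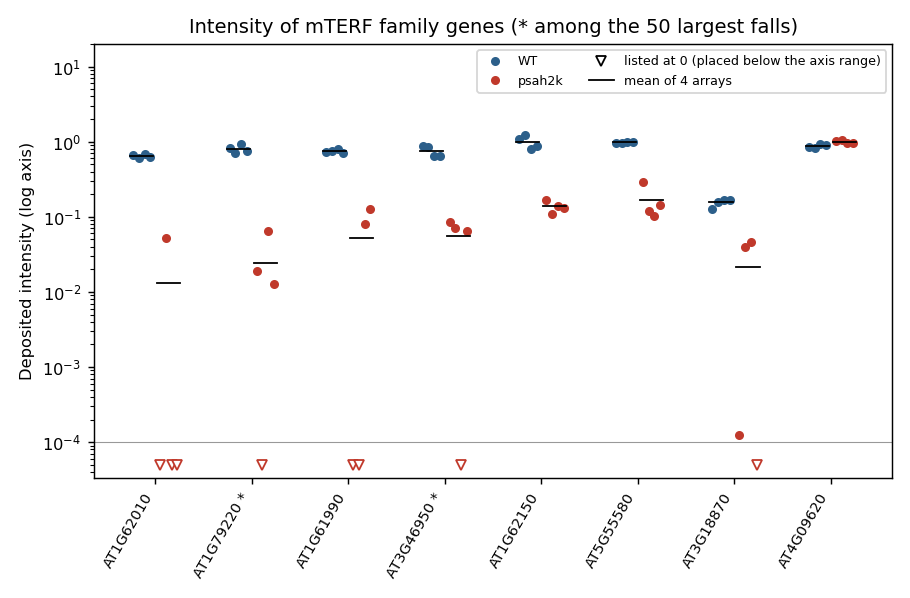
Deposited intensity on each array (log axis) for the 8 mTERF family genes with a feature of their own, from the largest fall in rank at the left to the largest rise at the right, with WT in blue, psah2k in red, means of 4 arrays as black bars and values at 0 as open triangles. AT1G79220 and AT3G46950, marked by a star, belong to the 50 largest falls, and AT4G09620 has psah2k values of 0.957 to 1.05 that lie above its WT values.

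Enzymes and cofactor proteins made up 5 of the 50, AT3G03890, COQ10 and ABC1K6 among them. AT1G24360, the plastid 3-oxoacyl-ACP reductase that carries out the first reduction of each round of fatty acid synthesis, was very even in WT, at 1.01, 1.04, 1.04 and 1.01. In psah2k it had 0.0547, 0, 0.138 and 0.156, so every mutant array was far dimmer as deposited, while the percentiles of psah2k 3 and 4 were 70.7 and 72.5. FATB, the plastid thioesterase that ends fatty acid synthesis and the only other listed gene of this pathway with a feature of its own, stood higher in rank in psah2k by 17.9 points, though dimmer as deposited (means of 0.0921 and 0.0341). AT4G26900 (AT-HF, HISN4) encodes the imidazole glycerol phosphate synthase of histidine synthesis. It had 1.14, 1.17, 1.01 and 1.16 in WT and 0.0553, 0.132, 0.0506 and 0.0556 in psah2k, where psah2k 2 stood above the others and all remained far below WT. No other gene of the 11 listed for histidine synthesis had a feature of its own.

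The folding factors among the 50 were AT5G35100 and AT5G17840, both above 0 on all arrays. AT5G35100 is CYP28, a plastid cyclophilin and so a member of a family of peptidyl-prolyl isomerases. Its intensities were 0.644, 0.646, 0.525 and 0.644 in WT and 0.0127, 0.0456, 0.0317 and 0.0577 in psah2k. Of the 6 plastid cyclophilins listed, AT1G74070 was the other with a feature of its own, and its mean percentiles were 80.4 in WT and 77.2 in psah2k. AT5G17840, a protein with the cysteine-rich domain of DnaJ chaperones, had 0.587, 0.559, 0.686 and 0.617 in WT and 0.0613, 0.000694, 0.0479 and 0.0111 in psah2k. Its psah2k values were very uneven, psah2k 2 being the dimmest, and all were below WT.

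Besides AT2G46300, membrane or secreted proteins included AT5G19750, AT4G31470 and AT2G29870. AT5G14910 was grouped with them by its family name alone, and where its product lies was not tested. AT5G19750, of the Mpv17 and PMP22 family of organelle membrane proteins, had 0.481, 0.470, 0.497 and 0.400 in WT and 0, 0.0124, 0.00280 and 0.0232 in psah2k, the lowest psah2k mean percentile of the 50 at 26.5. AT4G31470, a secreted protein of the family that includes the defence protein PR1, had 0.506 to 0.648 in WT and 0, 0.0375, 0.0329 and 0.0384 in psah2k. AT2G29870, an aquaporin-like gene, had 0.507 to 0.671 in WT and 0.00463 to 0.0548 in psah2k. All 3 were among the 47 genes with separate genotypes, from which nothing is read. SWAP70, a guanine nucleotide exchange factor for small GTPases of the ROP family, was the dimmest of the 50 in WT, at 0.422, 0.400, 0.275 and 0.355. Its psah2k values were 0.0145, 0.0101, 0 and 0.0135.

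Of the genes outside the 16 largest falls, AT1G16080, AT5G55570 and AT1G18290 were the brightest in WT, and all 3 were above 0 on all arrays. AT1G16080 had 4.94, 4.86, 2.44 and 3.74 in WT and 0.169, 0.227, 0.0655 and 0.174 in psah2k. It kept the highest psah2k mean percentile of the 50, 69.3, although its WT mean was 25.1 times its psah2k mean. AT5G55570 had 1.72, 1.80, 1.81 and 1.78 in WT and 0.0393, 0.163, 0.0920 and 0.113 in psah2k, and AT1G18290 had 1.41, 1.48, 1.34 and 1.44 and then 0.0829, 0.136, 0.0954 and 0.0779.

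At the limit of the list the values were close. The last 3 genes inside were AT1G35210 (−27.7 points), SWAP70 (−27.6) and AT5G22340 (−27.6), and the first 3 outside were AT4G17440 (−27.0), AT3G09250 (−26.7) and AT5G41960 (−26.5). Of the 18 genes taken out by the rule, 4 would have been among the 50. A further 40 features with 1 gene and a fall beyond that of the 50th gene, up to −66.5 points, were not candidates because they were at 0 on 2 or more psah2k arrays.

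The steadiest psah2k values among the 50 were those of AT2G36920, with 0.0180, 0.0166, 0.0273 and 0.0236 against 0.505, 0.479, 0.608 and 0.617 in WT. Its psah2k percentile had an SD of 1.80 points, and 12 of the 50 genes had one under 10. AT5G42070, with 0.914, 0.855, 0.779 and 0.720 in WT and 0.0250, 0.0290, 0.0381 and 0.0641 in psah2k, was another. Both were chosen for mention after their values were seen. The genes not otherwise described are AT4G13680, AT5G02710, AT1G21500, AT2G41950, AT5G52960, AT2G13690, AT2G31920, AT3G53470 and AT3G19120. Their differences ran from −41.4 points for AT4G13680 to −28.8 for AT3G19120. They too were among the 47 genes with separate genotypes, from which nothing is read. A feature that AT2G13690 shares with 2 other genes was at 0 on all 4 WT arrays and on 3 psah2k arrays.

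The same contrast was fitted with limma over all features, mainly to give the background. After quantile normalization of log2 intensities, with values of 0 as missing, the log2 fold change of the 50 genes ran from −5.42 for AT3G52070 to −1.45 for AT5G14910. Its median was −2.64, against −0.12 over all 2353 tested features. Of the 50 genes, 46 were called lower at an adjusted p below 0.05, beside 26.6% of all tested features, and since the rule used this contrast nothing is read from the count. With values of 0 replaced by the lowest value above 0 on the array, 20 of the 50 were called lower, beside 14.3% of all tested features, and again nothing is read from the count. AT3G50180, AT2G14660, AT3G24190 and AT3G04500 were not called after quantile normalization, with log2 fold changes of −4.43, −2.64, −1.95 and −1.77. Over the array 626 features were called lower and 620 (26.3%) higher. The split was 1718 lower and 172 higher as deposited and 396 lower and 817 higher with each array centred on its median, while the log2 fold change of each of the 50 genes was below 0 under these scalings and after centring on the upper quartile.

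On WT arrays, numbers 1 and 2 were both above or both below numbers 3 and 4 for 32 of the 50 genes, and for 64.5% of the 1806 features above 0 on all arrays. In psah2k this held for 16 of the 50 genes and for 51.3% of those features. Only 19 of the 50 genes are above 0 on all arrays, so the counts and the shares cover unlike sets. What these numbers share is not stated in the labels.

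By chromosome, 12, 13, 9, 6 and 10 of the 50 genes lie on chromosomes 1 to 5, where the features with 1 gene count 173, 124, 130, 120 and 143. No chromosome thus holds most of them.

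**Figure D5:**
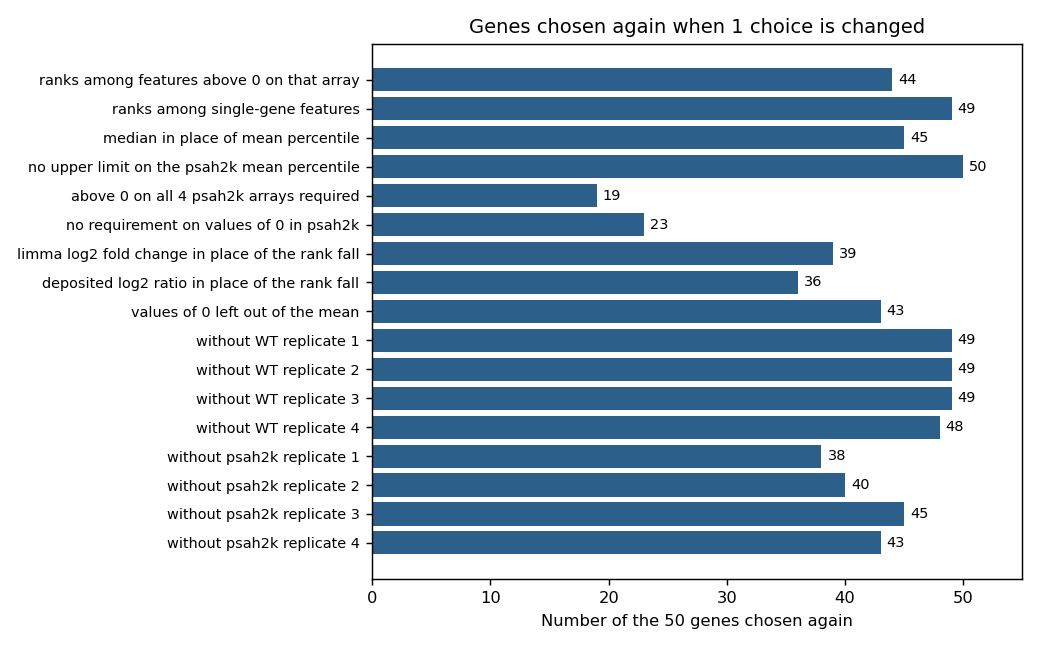
Number of the 50 genes chosen again (x axis) when 1 choice of the rule is changed or 1 array is left out (bars). Leaving out a WT array keeps 48 or 49 genes and leaving out a psah2k array 38 to 45, while a changed requirement on values of 0 keeps 19 or 23.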

How the data were processed

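The deposited table holds 1 intensity per feature and array on a linear scale with a ceiling of 100. No label or header records the authors' background subtraction or scaling. The number of arrays limits the precision. Groups and numbers came from the sample titles, per the labels. Gene names came from GEO's annotation of the platform: 692 had 1 gene, 870 several and 1877 none, and 690 of the 692 matched the TAIR10.1 RefSeq table. Percentile ranks averaged ties.

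limma 3.58.1 in R 4.3.3 (lmFit, eBayes, two-sided, Benjamini-Hochberg, threshold 0.05) was run on quantile-normalized log2 intensities of the 2353 features with at least 3 values above 0 per genotype. Only the fit was tested on simulated data. Those had no values of 0 and were not normalized, so the handling of both was not tested. Log2 fold changes come from that fit, which left out values of 0.

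Genes were named by this rule: the 16 largest falls, 3 further genes per functional class with the highest WT intensity, and the 3 genes on either side of the limit. Only 67 of the 692 features had a descriptive synonym, so the classes were void and all 50 genes fell in none. The genes, lists and roles were chosen with earlier results of these data known, and any gene named outside the rule was chosen after its values were seen. Promoter and protein sequences were not used here. The labels do not say whether same-numbered samples belong together. Alternatives covered the ranking, values of 0, scaling, the variance model, the replicate block and each array left out. Figures were drawn with matplotlib 3.10.9.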

Additional observations from a re-analysis of the deposited data

Results flagged for a closer look

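Among the 100 sets of 4 percentile ranks (50 genes in each of the genotypes), 5 held an array far from the other 3, measured as its gap to the nearest over the whole range, with 0.829 as the limit. For independent, normally distributed values chance gives about 1 in 20. That rate does not apply to these ranks, which have ties at 0 and belong to genes chosen by a rule that favours a 0. For AT5G14910 (gap 0.882), AT3G46950 (0.852) and AT4G31470 (0.829) the array apart was a psah2k array listed at 0, namely psah2k 2 at a percentile of 14.8 against 69.1 to 76.3, psah2k 3 at 11.2 against 52.4 to 59.6, and psah2k 1 at 14.1 against 39.7 to 45.0. For AT-HF (0.838) psah2k 2 was high, at 68.1 against 47.8 to 51.1. For AT2G21720 (0.846) WT 2 was low by less than 1 point, at 84.4 against 85.1 to 85.2.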

How the results depend on the processing

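The median difference of the 50 genes, −36.8 points, was −47.2 with ranks among features above 0 only and −32.9 with values of 0 left out of the mean, and −38.2 to −35.8 with any 1 array left out. Of the 50 genes, 19 were chosen again when all psah2k arrays had to be above 0 and 23 with no requirement on values of 0, since 31 of the 50 are at 0 on 1 psah2k array and 40 other features with falls beyond the limit of the list are at 0 on 2 or more. With 1 array left out, 38 to 49 were chosen again, and 28 genes were chosen in all 8 such runs, SWAP70 in only 2. The other changes of the ranking kept 36 to 50. The median log2 fold change, −2.64, was −4.44 as deposited, −3.21 after upper quartile centring, −4.00 with values of 0 at the smallest positive value and −2.07 with a pseudocount of 0.0253, while it was −2.79 to −2.42 with 1 array left out. The limma calls over the array, 1246, became 1890 as deposited and ranged from 1028 to 1318 with 1 array left out. With the replicate number as a block there were 1087 calls, and the median log2 fold change was −2.68. Deviations of same-numbered samples correlated at 0.0561 to 0.126 over 1806 features, and each sample correlated best with its own number (other numbers at most 0.0371), a hint from the data and not from the design. Of 264 alternative values for 22 named genes, 256 moved by less than the spread between replicates, 8 by more and 0 changed sign. Leaving out 1 array, or a single 0, cannot move a mean of 4 by as much as that spread. Most of the 256 were thus fixed by arithmetic, and nothing is read from their number. The 8 came from ranks among features above 0, where falls were larger. The causes were not tested. Values near 0 in psah2k leave the size of each fold uncertain.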
